A study of Mus musculus with 7 samples.

Results

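Clusterin, the apolipoproteins E and D, the enzyme lipoprotein lipase and the receptors that take up lipoprotein particles were followed in fibroblasts of pancreatic tumors. The members were chosen by gene symbol: the ligands Clu, Apoe and Apod, the lipase gene Lpl, and the receptor genes Lrp1, Vldlr, Lrp8 and Sorl1. Of these 8 genes, 7 had a row among the 12771 genes of the count table, and Sorl1 was not analysed here. In fibroblasts of shBrca2 tumors Clu was 3.11-fold higher than in shControl tumors, while Apoe was 1.90-fold, Apod 2.58-fold and Lrp1 1.69-fold lower. The difference in Apoe passed in 8 of 13 alternative fits, and those in Clu, Apod and Lrp1 passed in all 13. Lpl, Vldlr and Lrp8 did not pass the test.

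Clusterin, also called apolipoprotein J, is a secreted chaperone that binds misfolded proteins and travels on lipoprotein particles. Apolipoprotein E coats lipoproteins and is a ligand by which cell surface receptors recognize them, and apolipoprotein D is a small lipid carrier of the lipocalin family. Lipoprotein lipase releases fatty acids from triglyceride-rich particles, LRP1 is a large endocytic receptor of fibroblasts and many other cells, VLDLR and LRP8 (ApoER2) also carry the reelin signal, and SORL1 sorts cargo between endosomes and the Golgi.

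The study asked how loss of Brca2 in cancer cells changes the fibroblasts of the tumor stroma, called cancer-associated fibroblasts (CAFs). The cancer cells were KPC cells, a mouse pancreatic cancer line, which carried lentiviral pLKO.1 hairpins: a non-targeting hairpin (shControl) or one against Brca2 (shBrca2). They were injected into the pancreas of male C57BL/6 mice (C57BL/6 J in the study's methods) at 8 weeks of age, and the tumors were taken 2 to 3 weeks later in both groups. Cells of the immune and epithelial lineages were depleted on beads, and live cells without CD45, CD31 or EpCAM and with podoplanin (PDPN) were sorted, so the sort was meant to collect host fibroblasts, which carry no hairpin. The shControl group has 3 libraries, numbered 1, 2 and 4, and the shBrca2 group has 4, numbered 1 to 4, and all were made with MARS-seq, which counts transcripts at their 3' ends.

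Total counts ran from 1898679 to 5990579 per library, and 12511 to 12722 genes had a count in a library. Brca2 itself had 10.3 to 17.7 normalized counts in shControl and 8.64 to 14.6 in shBrca2 CAFs, which does not measure the knockdown in the cancer cells. All 11 fibroblast markers examined were present. Their summed level was 40287 to 44408 CPM (a gene's counts scaled to a common library total) in shControl and 35316 to 39037 CPM in shBrca2 libraries. Dcn and Lum, collagen-binding proteoglycans of the matrix, were the markers called lower. A gene was called when its DESeq2 adjusted p was under 0.1, its log2 fold change was beyond 0.5 in either direction and its mean normalized count was over 5. Of 12768 genes tested, 9.04% were called: 3.77% were higher and 5.27% lower in shBrca2 CAFs. For 17.1% of the genes tested the groups lay apart, without overlap of their normalized counts. The median log2 fold change of all genes tested was 0.01.

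The 3 members that were lower together are shown first by the sequence before their start sites, because that is the stretch where a common element would be looked for. RefSeq promoter windows on GRCm38.p6 (mm10) matched 6 of the 8 members, and no entry was found for Clu and Lpl. Each line gives the 250 bases upstream of the first listed start, 5' to 3' on the gene's own strand: chr7:19699189-19699438 for Apoe, chr16:31314809-31315058 for Apod and chr10:127621149-127621398 for Lrp1, all on the minus strand. Capitals mark a GC box (GGGCGG or its reverse complement CCGCCC) or a pair of heat shock element units (GAANNTTC or TTCNNGAA).
Apoe: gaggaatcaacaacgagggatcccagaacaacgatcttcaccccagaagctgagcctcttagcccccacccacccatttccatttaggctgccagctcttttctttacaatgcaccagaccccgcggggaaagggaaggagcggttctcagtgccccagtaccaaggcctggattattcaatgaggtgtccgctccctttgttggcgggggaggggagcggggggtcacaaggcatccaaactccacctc
Apod: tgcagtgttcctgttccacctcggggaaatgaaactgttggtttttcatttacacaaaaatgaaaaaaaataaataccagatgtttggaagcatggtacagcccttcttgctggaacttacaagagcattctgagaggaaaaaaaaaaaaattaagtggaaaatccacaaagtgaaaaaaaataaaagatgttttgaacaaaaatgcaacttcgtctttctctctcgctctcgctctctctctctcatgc
Lrp1: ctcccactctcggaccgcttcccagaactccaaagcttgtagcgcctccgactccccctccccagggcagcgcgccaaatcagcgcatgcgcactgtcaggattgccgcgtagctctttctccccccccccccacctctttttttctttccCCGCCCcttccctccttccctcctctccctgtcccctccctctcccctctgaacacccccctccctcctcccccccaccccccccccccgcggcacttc
The windows differed in base composition. The Apod window held 36.4% G and C, and 6.24% of all promoter windows held less. The Lrp1 window held 67.2%, and 86.5% of windows held less. Apoe lay between them at 57.2%. The Lrp1 window held a GC box, as did 32.7% of all 32851 windows, searched on both strands. No pair of heat shock element units was found in the 3 windows (12.8% of all windows held one), nor a TATA box TATAAA (12.4%) or a nuclear receptor half-site AGGTCA (14%). Apod and Lrp1 have 1 listed start each. Apoe has 3, and the window of the second held 2 matches to TATAAA. These matches describe letters only.

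Among the ligands, Clu was the one that rose. Clu lies on chromosome 14, 65968483 to 65981548 on the plus strand (GRCm38.p6). In shControl CAFs it reached 2399 normalized counts in replicate 1, 3646 in replicate 2 and 6463 in replicate 4. In shBrca2 CAFs its counts were 13694, 9647, 16209 and 12383, in the order of replicates 1 to 4. Every shBrca2 library was above every shControl library, although the shControl libraries themselves spread widely. The means were 4169 ± 2082 (SD, n = 3) and 12983 ± 2733 (SD, n = 4), which is a change of 1.64 on the log2 scale (standard error, SE, 0.30, 95% interval 1.05 to 2.22, DESeq2 likelihood ratio test, adjusted p = 2.1e-05). Clu took 0.0682% of all counts in shControl replicate 1, the lowest library, and 0.494% in shBrca2 replicate 3, the highest.

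Apoe, the receptor ligand on these particles, went the other way. Its gene lies on chromosome 7, 19696244 to 19701310 on the minus strand. In the same order of libraries its normalized counts were 9085, 2963 and 8492 for shControl, and 3360, 3403, 4171 and 3482 for shBrca2. The 4 shBrca2 libraries lay close together, and 2 of the 3 shControl libraries were well above them. The remaining one, shControl replicate 2, was the lowest of all 7, so the groups overlapped. The means were 6846 ± 3376 (SD, n = 3) and 3604 ± 381 (SD, n = 4), a log2 fold change of -0.93 (SE 0.31, 95% interval -1.54 to -0.32, DESeq2 adjusted p = 0.042). The call was lost without shControl replicate 1 (-0.67, DESeq2 adjusted p = 0.27), without shControl replicate 4 (-0.74, 0.20), without shBrca2 replicate 1 (-0.89, 0.12) and without shBrca2 replicate 4 (-0.91, 0.10). Without shControl replicate 2 the log2 fold change was -1.29 (DESeq2 adjusted p = 1.1e-12).

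Apod was the member with the largest fall on the log2 scale. Its gene lies on chromosome 16, 31296192 to 31314808 on the minus strand. Its normalized counts by library were 263.9, 168.2 and 252.0 for shControl, and 59.4, 60.6, 58.7 and 174.8 for shBrca2. Replicates 1 to 3 of shBrca2 were almost equal, and replicate 4 lay just above the lowest shControl library. The means were 228 ± 52.1 (SD, n = 3) and 88.4 ± 57.6 (SD, n = 4), a log2 fold change of -1.37 (SE 0.38, 95% interval -2.11 to -0.63, DESeq2 adjusted p = 0.0076). Without shBrca2 replicate 4 the log2 fold change was -1.94 (DESeq2 adjusted p = 2.0e-09).

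**Figure D1:**
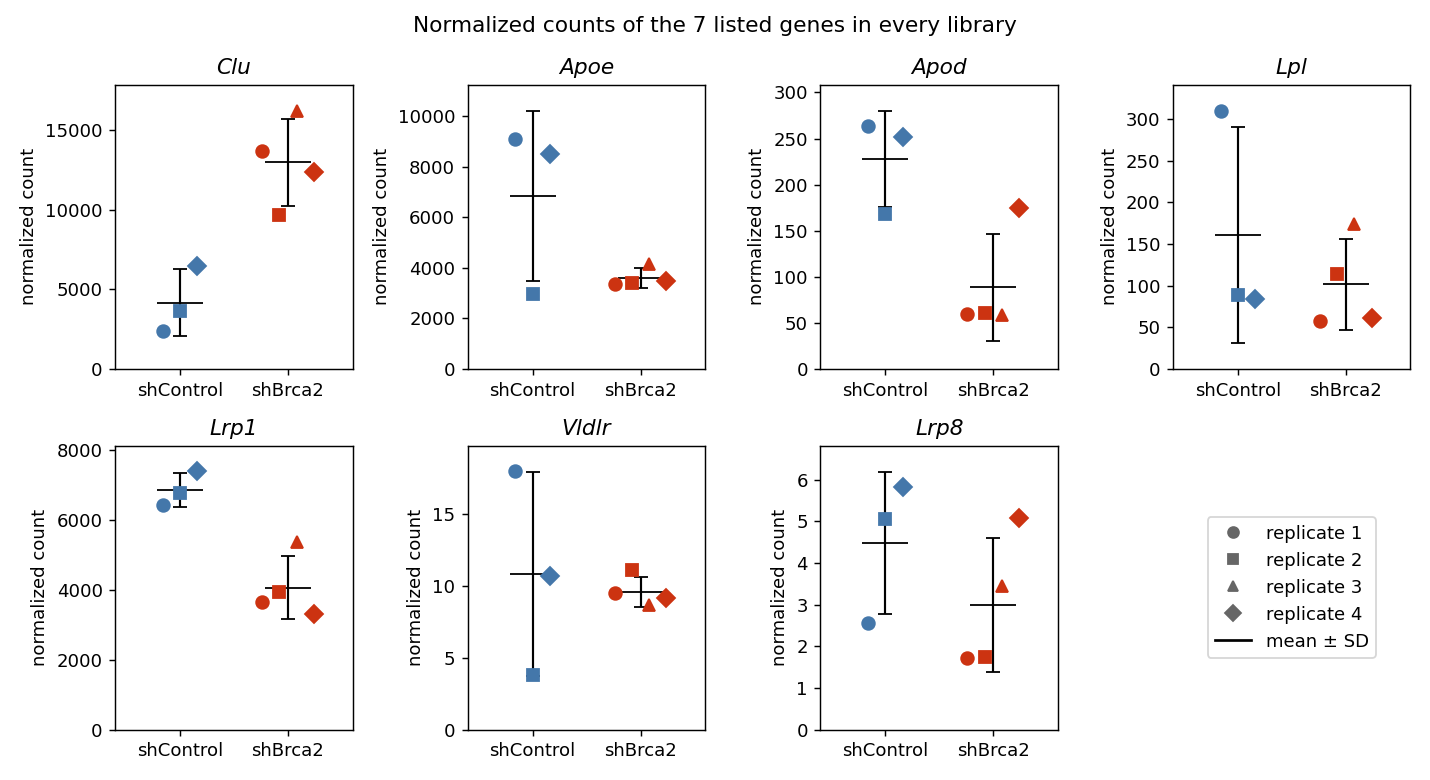
Normalized counts of the 7 measured members, one panel a gene with its own linear axis from 0. Each point is a library, and the bars give the group mean and SD (n = 3 shControl, n = 4 shBrca2). The groups are apart for Clu and Lrp1 and overlap in the other panels, through shControl replicate 2 for Apoe and shBrca2 replicate 4 for Apod.

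Lpl, on chromosome 8, 68880555 to 68906932 on the plus strand, varied most within a group. Its normalized counts by library were 310.1, 88.6 and 83.7 for shControl, and 57.7, 113.7, 174.4 and 61.0 for shBrca2. One shControl library stood above the other 6 and set the direction. The means were 161 ± 129 (SD, n = 3) and 102 ± 54.9 (SD, n = 4), and the log2 fold change was -0.67 (SE 0.68, 95% interval -1.99 to 0.66, DESeq2 adjusted p = 0.70). Without shControl replicate 1 the value was 0.22 (DESeq2 adjusted p = 0.90), so no direction can be given.

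Of the receptors, Lrp1 had by far the highest counts, and it fell. Lrp1 lies on chromosome 10, 127538157 to 127621148 on the minus strand. Its normalized counts by library were 6424, 6782 and 7387 for shControl, and 3647, 3929, 5370 and 3302 for shBrca2. The shControl libraries were close to each other, and every shBrca2 library lay below them. The means were 6865 ± 487 (SD, n = 3) and 4062 ± 909 (SD, n = 4), a log2 fold change of -0.76 (SE 0.19, 95% interval -1.13 to -0.39, DESeq2 adjusted p = 0.0023).

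Vldlr and Lrp8 were barely detected. Vldlr (chromosome 19, 27216480 to 27254231, plus strand) had 17.9, 3.80 and 10.7 normalized counts in shControl and 9.47, 11.1, 8.64 and 9.15 in shBrca2 libraries, from 3 to 21 raw counts each. Its log2 fold change was -0.20 (SE 0.56, 95% interval -1.30 to 0.90, DESeq2 adjusted p = 0.91). Lrp8 (chromosome 4, 107802200 to 107876840, plus strand) rested on 2 to 6 raw counts per library. Its log2 fold change was -0.63 (SE 0.86, 95% interval -2.32 to 1.06, DESeq2 adjusted p = 0.80), and its mean normalized count was too low for a call. For both genes a difference was not detectable at this depth, and both intervals include falls of the size measured for Lrp1 and Apoe.

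Of the 7 members tested, 1 was called higher and 3 lower, 57.1% against 9.04% of all genes. Their median log2 fold change was -0.67, against 0.01 over all genes. The groups did not overlap for 2 of the 7 members (28.6%), against 17.1% of all genes. The members are too few, and were named with earlier results of these data known, for these shares to be more than a description. Exons of 6 of the measured members overlap an annotated gene on the other strand in GENCODE vM39, for 521 of 4048 exon bases in Apoe (Gm71725), 782 of 2958 in Apod (Gm41442) and 1271 of 20494 in Lrp1 (Gm67009). Clu overlaps none. Whether the counting used strand is not given in the sources used here, so reads of such a pair cannot be told apart.

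**Figure D2:**
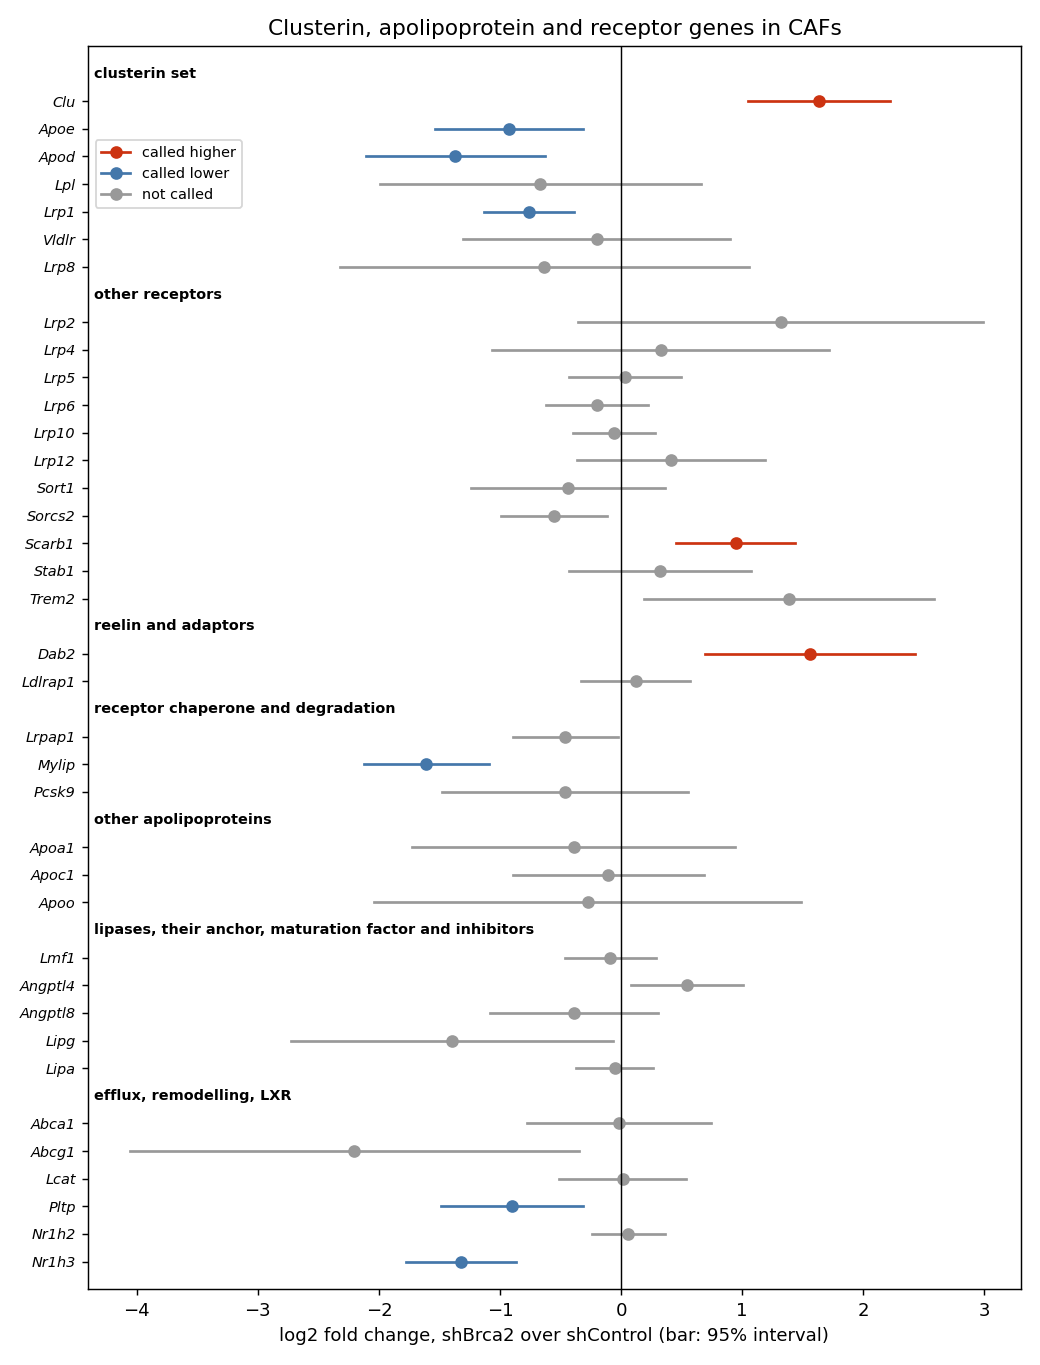
Log2 fold changes (shBrca2 over shControl) with 95% intervals for the 7 measured members and 30 of the other lipoprotein genes, by role. Red points were called higher, blue points lower and grey points were not called. Clu is at 1.64 and Lrp1, Apoe and Apod are at -0.76, -0.93 and -1.37, while the intervals of Vldlr, Lrp8 and Lpl cross 0.

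The opposite moves of Clu and Apoe were compared within each library, where scaling between libraries plays no part. In shControl replicates 1, 2 and 4 the ratio of Clu to Apoe raw counts, with a pseudocount of 1 added to each, was 0.264, 1.23 and 0.761. In shBrca2 replicates 1 to 4 it was 4.08, 2.83, 3.88 and 3.56. Every shBrca2 library held more counts of Clu than of Apoe, and 2 of the 3 shControl libraries held fewer. The mean log2 ratio was -0.67 ± 1.14 (SD, n = 3) in shControl and 1.83 ± 0.23 (SD, n = 4) in shBrca2 CAFs, a difference of 2.50 or 5.66-fold. Without shControl replicate 1 the difference in the log2 ratio was 1.88. The two-sided exact permutation p was 0.057, the smallest that the 35 divisions of 7 libraries allow, so this design cannot reach 0.05. The ratio restates the differences of Clu and Apoe already given for the same libraries, so this p is no separate support for them. The ratio compares counts of 2 genes with different transcripts and is read only between libraries, not as a ratio of molecules.

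Cells other than fibroblasts can carry these transcripts, and in sorted bulk samples fewer cells of a type and less RNA per cell cannot be told apart. Macrophages are a known source of Apoe. Of 13 macrophage markers 10 had a row, and Adgre1, Ptprc and Fcgr1 did not. Their summed level was 94.2 to 114 CPM in shControl and 170 to 193 CPM in shBrca2 libraries, without overlap, and Csf1r, C1qa and Cd14 were called higher. The difference in the sum came mainly from Csf1r, at 24.6 to 41.3 CPM in shControl and 68.8 to 84.3 CPM in shBrca2 libraries, and Cd14, at 8.50 to 37.0 and 42.1 to 64.3 CPM. The other 7 markers were not called, with log2 fold changes of -0.32 for Cd68 and -0.26 for Lyz2. The part of macrophage RNA in the fall of Apoe was not tested. Of 9 epithelial markers 6 had a row and Epcam, Cldn4 and Esrp1 did not. Their sum was 109 to 324 CPM in shControl and 411 to 634 CPM in shBrca2 libraries, with Krt7, Krt8, Krt18 and Krt19 called higher. The 8 mesothelial markers, which share Krt7 and Krt19 with the epithelial list, summed to 263 to 848 CPM in shControl and 734 to 921 CPM in shBrca2 libraries, and Krt7 and Krt19 were its only genes called. Clu was at 682 to 1835 CPM in shControl and 2763 to 4943 CPM in shBrca2 libraries. The epithelial sums of the groups did not overlap either. In shControl they rose from replicate 1 to replicate 2 to replicate 4, as Clu did. Within shBrca2 both were lowest in replicate 2, and the epithelial sum was highest in replicate 4 and Clu in replicate 3. The mesothelial sums overlapped through shControl replicate 4, at 848 CPM. Within each group they ranked the libraries in the same order as Clu. Msln and Krt7 were the only genes of this list whose groups did not overlap. Msln was at 27.4 to 148 CPM in shControl and 160 to 209 CPM in shBrca2 libraries. The part of both lists in the rise of Clu was not tested.

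For Lpl, a gene of adipocytes and macrophages, 2 of 8 adipocyte markers had a row: Fabp4 and Pparg. Adipoq, Plin1, Cidec, Lep, Retn and Cfd did not. The 2 summed to 30.5 to 74.3 CPM in shControl and 50.5 to 65.2 CPM in shBrca2 libraries, and Pparg was called lower. Pericyte markers (6 of 6 with a row) summed to 105 to 123 CPM in shControl and 105 to 162 CPM in shBrca2 libraries, with Notch3 called higher. Endothelial markers (4 of 6) summed to 20.4 to 34.8 CPM in shControl and 25.8 to 36.4 CPM in shBrca2 libraries, mostly from Kdr, and none was called. Pecam1, at 0.552 to 4.90 CPM in shControl and 0 to 0.543 CPM in shBrca2 libraries, had a DESeq2 adjusted p of 0.031 but too low a mean count for a call. Tek (log2 fold change -1.55, DESeq2 adjusted p = 0.12) and Vwf (-1.11, 0.52) were not called, and for these 3 genes the groups did not overlap. Schwann cell markers (2 of 5), from a cell type that can express Apod, summed to 2.80 to 9.23 CPM in shControl and 1.63 to 4.21 CPM in shBrca2 libraries, with none called. Acinar markers (6 of 6) summed to 21.3 to 59.3 CPM and 3.80 to 16.4 CPM, with 3 called lower. The part of these lists in the members' differences was not tested.

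**Figure D3:**
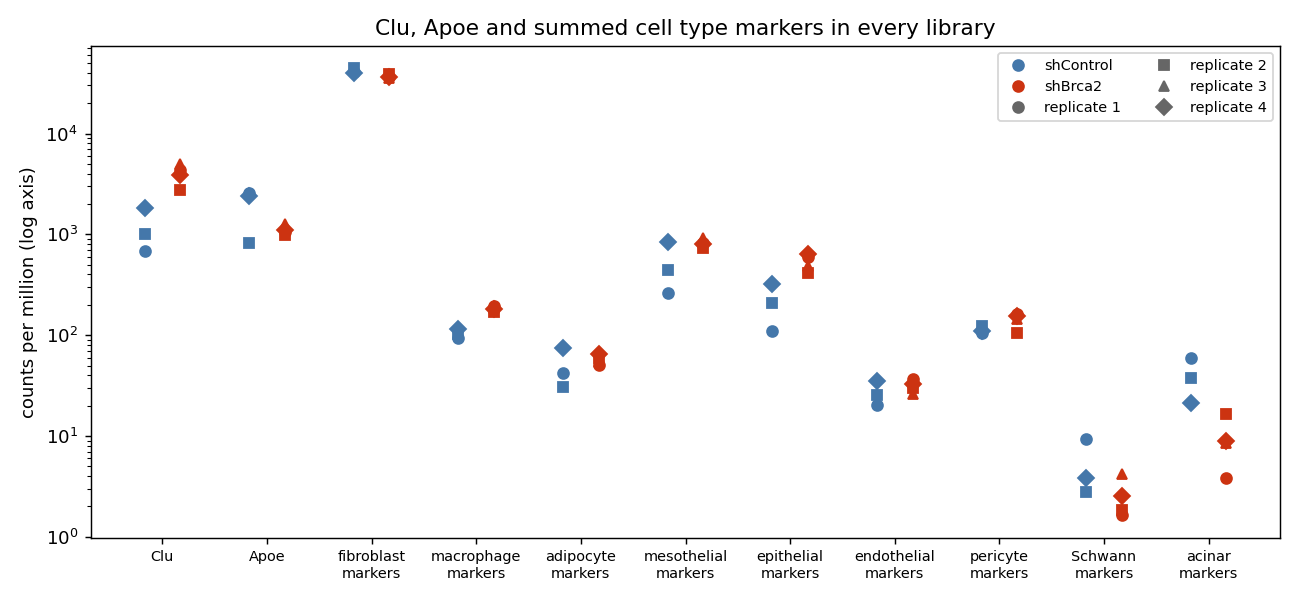
CPM of Clu and Apoe and summed CPM of each cell type's markers per library, on a log axis, for shControl (blue) and shBrca2 (red) CAFs. The fibroblast sum is at least 35316 CPM in every library, while the macrophage sums reach at most 193 CPM and the epithelial sums at most 634 CPM and both are higher in all 4 shBrca2 libraries than in the 3 shControl libraries.

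The wider lipoprotein pathway was described with 45 further genes, of which 31 had a row. Scarb1 and Dab2 were called higher, and Mylip, Nr1h3 and Pltp lower, 16.1% of those tested against 9.04% of all genes. The groups did not overlap for 6 of the 31 genes, or 19.4%, close to the 17.1% of all genes. The median log2 fold change was -0.09, against 0.01 over all genes.

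Of the 12 other receptors measured, 1 was called, and their median log2 fold change was 0.18. Scarb1, the receptor that takes up cholesterol from HDL, rose from 38.4, 55.7 and 48.6 normalized counts in shControl to 75.7, 91.5, 93.3 and 103.7 in shBrca2 libraries. The groups were apart, with a log2 fold change of 0.95 (SE 0.25, DESeq2 adjusted p = 0.0051), but the call was lost without shControl replicate 1 (DESeq2 adjusted p = 0.13). Lrp10 had the highest counts of these receptors. It was at 872 ± 114 (SD, n = 3) in shControl and 837 ± 112 (SD, n = 4) in shBrca2 CAFs, a log2 fold change of -0.06 (SE 0.17, DESeq2 adjusted p = 0.92).

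Among genes whose proteins act on the receptors, transcripts were called in both directions. Dab2, an endocytic adaptor that binds the tails of lipoprotein receptors, rose from 17.1, 3.80 and 8.76 normalized counts in shControl to 32.7, 31.5, 27.6 and 29.5 in shBrca2 libraries. The shBrca2 libraries were close to each other and all above the shControl libraries (log2 fold change 1.56, SE 0.44, DESeq2 adjusted p = 0.0093). Without shControl replicate 1 the log2 fold change was 2.23 (DESeq2 adjusted p = 0.0041), and without shControl replicate 2 it was 1.22 (DESeq2 adjusted p = 0.081). Mylip (IDOL), the ubiquitin ligase that sends VLDLR and LRP8 to degradation, fell from 140.1, 117.6 and 90.5 normalized counts to 31.8, 36.1, 46.6 and 40.7. Its lowest shControl library was above its highest shBrca2 library (log2 fold change -1.61, SE 0.26, DESeq2 adjusted p = 2.0e-07). The other adaptor measured and the other 2 genes of the chaperone and degradation group were not called.

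In the group for cholesterol efflux, particle remodelling and the LXR receptors, 2 of 6 genes were called lower and the median log2 fold change was -0.46. Nr1h3, which encodes the sterol-activated nuclear receptor LXRα, fell from 134.1, 143.0 and 166.4 normalized counts in shControl to 65.4, 67.0, 60.4 and 42.7 in shBrca2 libraries. The groups were far apart, with a log2 fold change of -1.32 (SE 0.23, DESeq2 adjusted p = 2.0e-06). Nr1h2, which encodes LXRβ, was at 357 ± 36.1 (SD, n = 3) and 372 ± 20.4 (SD, n = 4), a log2 fold change of 0.06 (SE 0.15, DESeq2 adjusted p = 0.91). Pltp, a phospholipid transfer protein of plasma lipoproteins, had 1186, 655 and 1262 normalized counts in shControl and 377, 848, 506 and 479 in shBrca2 libraries. Its groups overlapped through shControl replicate 2 and shBrca2 replicate 2 (log2 fold change -0.90, SE 0.30, DESeq2 adjusted p = 0.038). Its call was lost without shControl replicate 1 (DESeq2 adjusted p = 0.15), shControl replicate 4 (0.19), shBrca2 replicate 1 (0.16) or shBrca2 replicate 4 (0.13).

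None of the 5 genes for lipases, their maturation and their inhibitors was called (2 had an unadjusted p under 0.05), and their median log2 fold change was -0.09. Angptl4, a secreted inhibitor of lipoprotein lipase, was the most abundant of them by counts. It was at 1475 ± 317 (SD, n = 3) in shControl and 2152 ± 576 (SD, n = 4) in shBrca2 CAFs, a log2 fold change of 0.54 (SE 0.24, DESeq2 adjusted p = 0.18). Of 8 other apolipoprotein genes listed 3 had a row, none was called, and none had an unadjusted p under 0.05.

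The genes whose pattern over the 7 libraries was most like that of Clu were sought by the root mean square difference of log2(normalized count + 1), with every gene centred on its own mean. Among 6734 genes with a mean normalized count over 50, the median difference was 0.99. Abcb1b, a multidrug efflux pump, was nearest at 0.115. It had 42.7, 81.0 and 125.5 normalized counts in shControl and 278.0, 204.6, 328.1 and 290.7 in shBrca2 libraries, with shBrca2 replicate 3 highest and shControl replicate 1 lowest, as for Clu. The next were Tmem37 at 0.212, Rpp25, a subunit of ribonuclease P, at 0.212, Cdh3 (P-cadherin) at 0.218 and Hdc (histidine decarboxylase) at 0.231. Their log2 fold changes were 1.73 for Abcb1b, 1.30 for Tmem37, 1.59 for Rpp25, 1.45 for Cdh3 and 1.57 for Hdc. The likeness is over 7 libraries that include the difference between the groups.

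**Figure D4:**
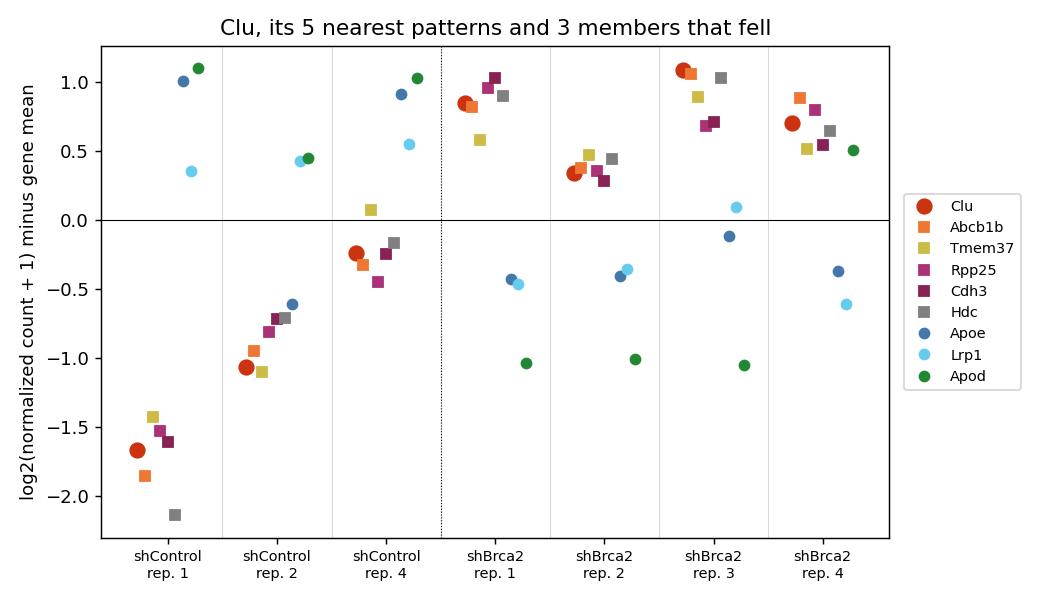
Each gene's log2(normalized count + 1) minus its mean over the 7 libraries, for Clu, the 5 genes nearest to it and the 3 members that fell. In shControl replicates 1 and 2 and in all 4 shBrca2 libraries the 5 nearest genes lie on the same side of 0 as Clu, and Apoe is above 0 in shControl replicates 1 and 4 and below 0 elsewhere.

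**Figure D5:**
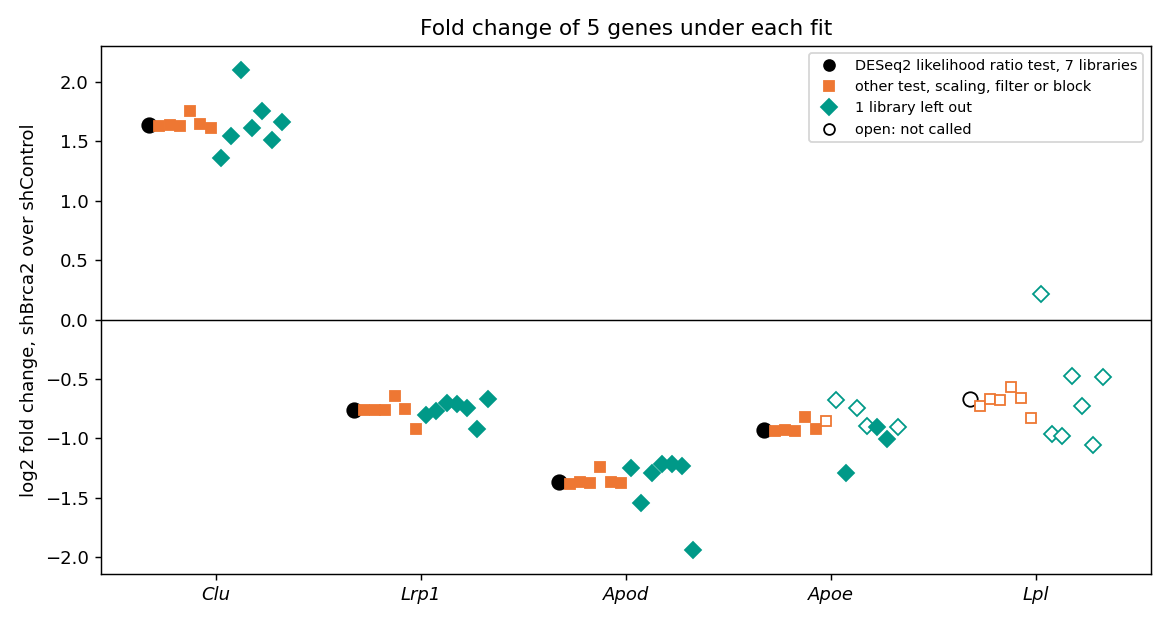
Log2 fold change of Clu, Lrp1, Apod, Apoe and Lpl in the reported fit (black) and in 13 alternative fits (orange for another test, scaling, filter or block, green with 1 library left out), with filled points for fits that called the gene. Clu stays between 1.36 and 2.10, Lrp1 between -0.92 and -0.64 and Apod between -1.94 and -1.22, called in all 13 alternatives, while Apoe was called in 8 of 13 and Lpl in none.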

How the data were processed

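RNA was sequenced from sorted CAFs of 7 mice, 3 shControl and 4 shBrca2. The authors deposited raw counts per gene symbol, 1 column per library, not normalized. The submitters' processing notes name bcl2fastq, cutadapt, STAR 2.4.2a, HTSeq, DESeq2 and the mm10 build without giving their roles. The annotation, the use of strand and the collapsing of molecular barcodes are not given in the sources used here, so counts may include PCR copies.

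DESeq2 1.42.0 (R 4.3.3) was run on all 12771 genes and all 7 libraries with a likelihood ratio test of the group, after the study's methods. Genes were called at an adjusted p under 0.1, an absolute log2 fold change over 0.5 and a mean normalized count over 5. Adjustment was by Benjamini-Hochberg over all genes, and 3 genes received no p. Fold changes are shBrca2 over shControl. The code was tested on simulated data. Alternatives were edgeR 4.0.16, the Wald test, TMM or total-count scaling, a filter of 10 counts in 3 libraries, a replicate block, an adjusted p under 0.05, a pseudocount of 0.5 in place of 1 for the ratio, and leaving out each library. All pairs of libraries differed by more than counting error (lowest mean chi-square per gene 3.16).

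The members and lists were chosen with earlier results of these data known. Named were all members, every called gene of the wider lipoprotein list with its 3 uncalled genes of highest mean count, and the 5 genes nearest to Clu. Counts and medians cover each list as measured, and 1 of its genes is not reported here by its own values. Marker genes and genes with overlapping exons were named besides. Total counts of 1898679 to 5990579 limit the precision of genes with few counts. Gene positions and promoters are RefSeq's on GRCm38.p6, the mm10 build. Overlapping exons came from GENCODE vM39 on GRCm39, used for names and shared lengths only.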

Additional observations from a re-analysis of the deposited data

Results flagged for a closer look

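Within groups of 4 libraries, single libraries were compared with the rest by Dixon's ratio, the gap to the nearest library over the whole range, against its 95% critical value for 4 samples. Of 30 values examined in the shBrca2 group, 2 were beyond it, and chance alone flags about 5% of groups. Apoe in shBrca2 replicate 3 had 4171 normalized counts, above the 3360 to 3482 of the other 3 libraries (ratio 0.849). Apod in shBrca2 replicate 4 had 174.8 normalized counts, against 58.7 to 60.6 in the other 3 (ratio 0.984).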

How the results depend on the processing

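Clu, Lrp1 and Apod kept their direction and their call under all 13 alternative fits (Clu 1.36 to 2.10, Lrp1 -0.92 to -0.64, Apod -1.94 to -1.22 on the log2 scale). Apoe kept its direction in all 13 (-1.29 to -0.67) and its call in 8. Of 7 members, 4 were called in the reported fit and 3 to 4 with a library left out. With a library left out, Lpl ran from -1.05 to 0.22 and Vldlr from -0.57 to 0.38, both turning positive without shControl replicate 1. Lrp8 has no value under the count filter. The difference in the log2 ratio of Clu to Apoe ran from 1.88 to 2.99 with a library left out, and was 2.50 with a pseudocount of 0.5.

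Total-count scaling moved the median log2 fold change of all genes to 0.12 and the split of calls to 708 higher and 502 lower, against 481 and 673 in the reported fit, and changed no member's call. With a library left out, 615 to 1305 genes were called against 1154 in the reported fit (630 without shControl replicate 1, 615 without shBrca2 replicate 1, 662 without shBrca2 replicate 4), and 3 to 6 of the other lipoprotein genes against 5 (3 without shControl replicate 1). The causes were not tested.

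With a replicate block, 491 genes, 3 members and 3 other lipoprotein genes were called. Under it Apoe (-0.85, DESeq2 adjusted p = 0.13), Scarb1 (0.18), Dab2 (0.13) and Pltp (0.17) lost their call, Vldlr turned to 0.045, and the log2 ratio of Clu to Apoe differed by 2.46 (exact sign-flip permutation p = 0.25, the smallest that 3 pairs allow). The deviations of same-numbered libraries from their group means correlated at -0.066, -0.098 and -0.095 for replicates 1, 2 and 4. Of the libraries with a same-numbered partner, none correlated best with it. The numbers were therefore not taken as pairs in the reported fit. Depth limits Vldlr and Lrp8, with 2 to 21 counts per library.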
